A study of Rattus norvegicus with 18 samples.

Results

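Untreated cultures of clone #4S2, a line of INS-1 rat insulinoma cells, were compared after 48 h and after 24 h to describe how the uninduced cells of the study differed with time in culture. The members were the arrays labelled Control 24h and Control 48h, replicates 1 to 3 of each, which are 6 of the 18 arrays of the series. The other 12 arrays held untreated cultures at 5 days and cultures given 2 ug/ml doxycycline over each of the 3 times. All cultures carried a tet-ON regulator and a doxycycline-driven fusion of mouse insulin 2 (C96Y), which cannot form one of its disulfide bonds, with EGFP, and all were kept in RPMI with the selection drugs G418 and hygromycin. The untreated groups thus carried the transgene too, and the study describes its basal expression in this clone as low but detectable. The line is 1 clone, sorted after induction for its brightest EGFP cells, and it was seeded on the day before each experiment. The methods speak of independent experiments, but whether a 24 h and a 48 h array with the same number shared one is not given in the labels.

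INS-1 cells make and store insulin, so a large share of their messenger RNA encodes hormones, the convertases that cut them from their precursors, and granule proteins. These proteins fold in the endoplasmic reticulum (ER) with the help of chaperones. Cells short of amino acids or under ER stress translate the transcription factor ATF4, which is known to raise genes of amino acid synthesis, amino acid transport and transfer RNA charging.

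The values are signal intensities of 31042 probe sets, in the units of the deposited files, in which each array had been scaled to nearly the same trimmed mean. Of the beta-cell markers listed, 11 of 11 with a named probe set had a mean signal at or above the median of all probe sets, 122.4. The same held for 1 of 7 markers of other islet cells, which was Gcg, for 0 of 7 of acinar cells, for 1 of 7 of fibroblasts and for 0 of 6 of immune cells. The fibroblast marker was Pdgfra, and the collagen genes of that list, Col1a1, Col1a2 and Col3a1, lay below the median in every array. Summed over its list, the signal of acinar markers was 131 to 217 at 24 h and 164 to 184 at 48 h, and that of immune markers 111 to 183 and 109 to 148. The median signal of the 6 arrays ran from 118.4 to 134.9, and the GAPDH signal at the 3' end over that at the 5' end, a sign of RNA quality, from 1.06 to 1.17. No 2 arrays of the series held identical values in 153 comparisons.

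The 6 arrays did not group by time. Over the 15521 probe sets in the upper 50% of signal, the Pearson correlation of log2 signals was 0.989 between 24 h replicate 2 and 48 h replicate 1. It was 0.988 between 24 h replicate 3 and each of 48 h replicates 2 and 3. Between arrays of the same time it was 0.967 to 0.979 at 24 h and 0.977 to 0.989 at 48 h. The array of 24 h replicate 1 had its highest correlation, 0.977, with 24 h replicate 2. Each array was also set against the mean log2 signal of the other 2 arrays of its time. At least 2-fold away from that mean were 78 probe sets above and 82 below in 24 h replicate 1. In 24 h replicate 3 these were 71 and 77. The other 4 arrays had 5 to 40 above and 6 to 95 below, the largest number below in 48 h replicate 1. Differences by time are therefore given for each array, and again without 24 h replicate 1 where that array decides them.

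**Figure D1:**
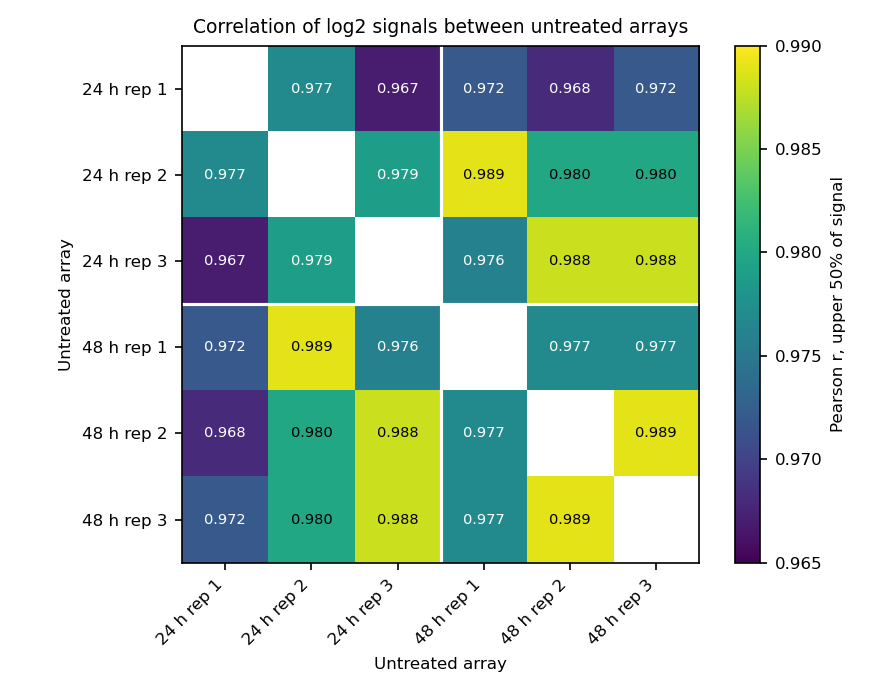
Pearson correlation of log2 signals between each pair of the 6 untreated arrays, over the probe sets in the upper 50% of signal; white lines separate 24 h from 48 h. The highest values lie between 24 h replicate 2 and 48 h replicate 1, at 0.989, and between 48 h replicates 2 and 3, also 0.989, while the row of 24 h replicate 1 holds values of 0.967 to 0.977.

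No probe set differed between 48 h and 24 h at an adjusted p under 0.05 by limma. The smallest adjusted p was 0.782, and the called share was 0% in each direction. At an unadjusted p under 0.05, 553 probe sets were higher at 48 h (1.78%) and 655 were lower (2.11%). Centring each array on its median turned this split to 607 higher and 432 lower. All 3 arrays of 48 h lay above all 3 of 24 h for 1281 probe sets (4.13%) and below them for 1571 (5.06%). The methods' t-test likewise left 0 after Benjamini-Hochberg adjustment, and at an unadjusted p under 0.05 it gave 618 above and 717 below. The 95% interval of a log2 difference reached a median of 0.34 to either side in the upper 50% of signal and 1.61 in the lower 50%. In the upper 50%, 39 probe sets were at least 1.5-fold higher at 48 h and 56 at least 1.5-fold lower, of which 11 and 29 had groups that did not overlap. At least 2-fold, 4 were higher, namely Fam151a, Plppr5, Rbx1 and a probe set without a gene name, and 2 lower, those of Rpl39 and Rpl3. Of these, Plppr5, Rbx1 and Rpl3 are named for their fold after their values were seen. Rbx1, a subunit of cullin ubiquitin ligases, showed the grouping of the arrays, with 699, 893 and 2634 at 24 h and 1078, 3336 and 3695 at 48 h, high in 24 h replicate 3 and 48 h replicates 2 and 3. In the following, "higher" and "lower" describe means and arrays, and no gene named passed the adjusted threshold. In bulk RNA, fewer cells of a type and less RNA per cell cannot be told apart.

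The differences varied with the level of signal. Among the 311 probe sets in the highest 1% of mean signal, those of 9135 and more, the median log2 difference was 0.24 and 98.7% were above 0. The 48 h arrays lay wholly above the 24 h arrays for 66.9% of them, against 4.13% of all probe sets. After quantile normalization, which gives every array the same distribution of signals, their median was 0.01 and 53.7% were above 0. Without 24 h replicate 1 and with the deposited scaling, the median was 0.18. The median over all probe sets was -0.03. Differences of named genes in this highest 1%, to which 7 of 17 hormone and granule genes belonged, are therefore given with both scalings.

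**Figure D2:**
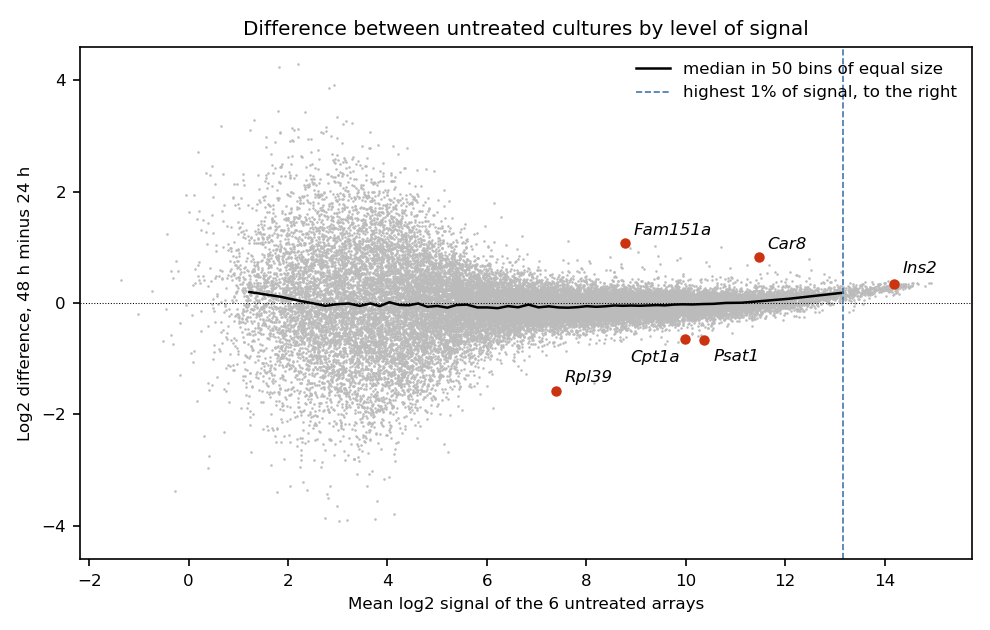
Log2 difference of mean signal, 48 h minus 24 h, against mean log2 signal for 31042 probe sets (grey), with the median in bins of equal size (black line) and the start of the highest 1% of signal (dashed line). The black line lies near 0 over most of the range and rises to the right, where Ins2 lies at 0.34, while Rpl39 at -1.57 and Fam151a at 1.08 lie far from it.

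By unadjusted p among genes in the upper 50% of signal whose groups did not overlap, the first gene higher at 48 h was Fam151a, a gene of little known function. Its signal was 213, 333 and 389 at 24 h and 662, 584 and 674 at 48 h. Every 48 h array was above every 24 h array, and 24 h replicate 1 was the lowest of the 6. The log2 difference was 1.08 (95% interval 0.62 to 1.54, adjusted p = 0.998), and it was 0.83 without that array. Fam151a was not as high at 5 days, where the arrays labelled untreated read 96.2, 367 and 352. Replicates 1 and 2 of these stood apart in stress genes. Manf read 7576 in replicate 1 and Trib3 4838 in replicate 2, above every untreated array of 24 h and 48 h.

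Car8 encodes a carbonic anhydrase-related protein known to bind the inositol trisphosphate receptor, a calcium channel of the ER. Its signal was 1451, 2745 and 2459 at 24 h and 4195, 4013 and 3250.5 at 48 h. The groups did not overlap, and again 24 h replicate 1 was lowest. The log2 difference was 0.83 (standard error 0.21), and 0.55 without that array. Hopx, a homeodomain protein without DNA binding, had the same order, with 725, 1265 and 1271 at 24 h and 1898, 1943 and 1485 at 48 h. Its difference of 0.74 became 0.47 without 24 h replicate 1.

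For 3 further genes the 24 h arrays were close to each other, so that 24 h replicate 1 did not decide the difference. Abhd16a, a phospholipase that makes lysophosphatidylserine, read 1564, 1666 and 1677 at 24 h and 2224, 2233 and 2307 at 48 h, a log2 difference of 0.46 (standard error 0.09). Galnt14, which starts O-glycosylation in the Golgi, read 384, 350.2 and 369 and then 501, 504 and 461. Chmp2a, a subunit of the ESCRT-III complex that cuts membranes, read 5153, 5200 and 5056 and then 6412, 6038 and 6262. The groups lay apart in each, and without 24 h replicate 1 the differences were 0.43, 0.44 and 0.28. That of Chmp2a was 0.18 with quantile normalization.

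The rest of the 12 genes on the higher side were Mpv17l, a peroxisomal or mitochondrial membrane protein, Synpo2, an actin-binding protein, Rpl18, a protein of the large ribosomal subunit, Enpp2 (autotaxin), which makes lysophosphatidic acid, Cited2, a cofactor of CBP and p300, and Phf20l1, a reader of methylated lysine. Their log2 differences were 0.34 to 0.42. Rpl18 and Enpp2 belong to the highest 1% of signal and dropped from 0.36 to 0.09 and from 0.34 to 0.08 under quantile normalization. Mpv17l was 0.42 with the deposited scaling and 0.46 under quantile normalization, and Phf20l1 was 0.36 and 0.41. Of the 6 probe sets of Phf20l1, all others overlapped between the groups, at -0.17 to 0.06. The others of Synpo2, at 0.14 to 0.54, and of Cited2, at 0.17, overlapped as well.

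On the lower side, the probe set of Rpl39, a protein of the large ribosomal subunit, had the smallest p of all probe sets (unadjusted p = 2.52e-05, adjusted p = 0.782). Its signal was 329, 244 and 304 at 24 h and 103, 83.5 and 108 at 48 h. The groups did not overlap, and the lowest 24 h array was more than 2-fold above the highest 48 h array. The log2 difference was -1.57 (95% interval -2.05 to -1.09), and -1.48 without 24 h replicate 1. Ribosomal protein genes have many near-identical copies in mammalian genomes, and which of them this probe set reads was not tested. The signal was not as low at 5 days. The arrays labelled untreated, of which replicates 1 and 2 stood apart as given above, read 170, 495 and 339.

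**Figure D3:**
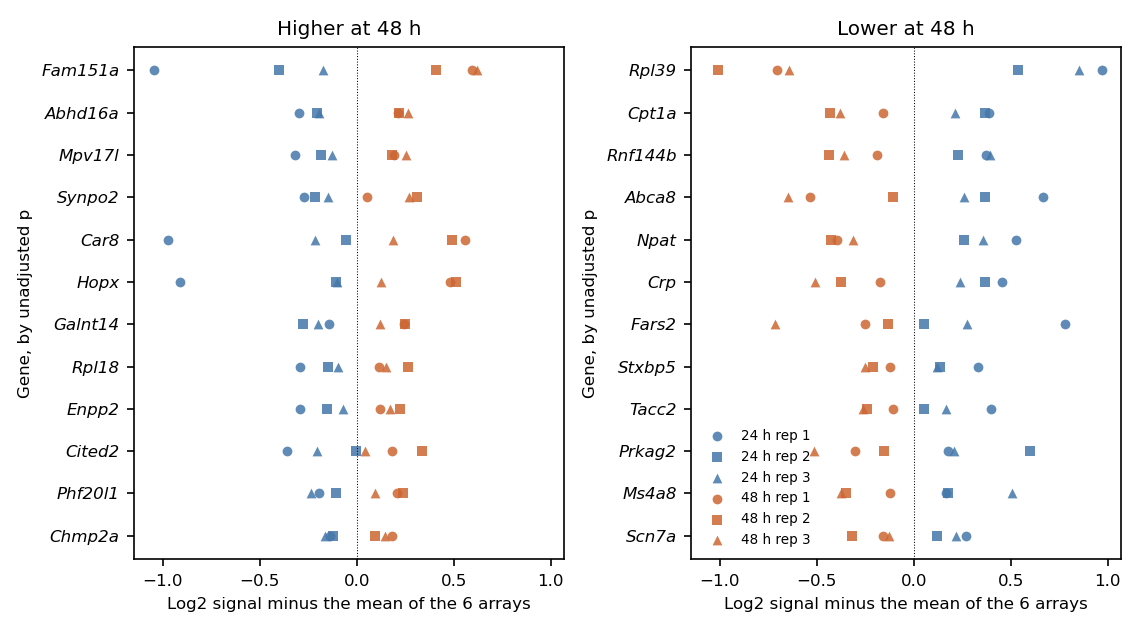
Log2 signal of 24 leading genes in each of the 6 untreated arrays, relative to the gene's mean over the 6, blue for 24 h and orange for 48 h, with a marker shape for each replicate number. The 12 genes of the left panel are higher and the 12 of the right panel lower at 48 h; 24 h replicate 1 (blue circles) lies far to the left for Fam151a, Car8 and Hopx and far to the right for Fars2.

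Cpt1a, the enzyme that lets long-chain fatty acids enter mitochondria for oxidation, was the next lower gene. It read 1322, 1305 and 1173 at 24 h and 907, 750.5 and 777 at 48 h. No arrays overlapped, and the 3 arrays of each group lay close together. The log2 difference was -0.65 (95% interval -0.90 to -0.39, adjusted p = 0.998), and it was -0.61 without 24 h replicate 1 and -0.62 with quantile normalization. A second probe set of Cpt1a read 693, 726 and 571 and then 554, 425 and 475, also without overlap. Prkag2, a regulatory subunit of the AMP-activated kinase that is known to favour fatty acid oxidation, had a log2 difference of -0.65. Of its 4 probe sets, the other 3 overlapped between the groups.

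Rnf144b, a ubiquitin ligase known as a p53 target, read 532, 482 and 540.2 at 24 h and 361, 304 and 320.2 at 48 h. The groups lay apart, at a log2 difference of -0.66 (standard error 0.14). Npat, which drives the histone genes at entry into S phase, read 249, 207 and 222 and then 131, 129 and 139. Its difference was -0.76, and the other probe set of Npat, at -0.26, overlapped. Fars2, the mitochondrial phenylalanyl-tRNA synthetase, read 1307, 792 and 922 and then 640, 694 and 464, so that 24 h replicate 1 was highest. Its difference of -0.74 became -0.53 without that array.

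The remaining 6 on the lower side were Abca8, a lipid transporter, Crp, the acute-phase protein of the liver, Stxbp5 (tomosyn), an inhibitor of granule fusion, Tacc2, a centrosome protein, Ms4a8, a membrane protein, and Scn7a, a sodium channel. Their log2 differences ran from -0.86 for Abca8 to -0.39 for Stxbp5. Of the 24 genes, 9 have more than 1 named probe set. Of the 18 other probe sets of these genes, 2 had groups that did not overlap, one of Cpt1a and one of Mpv17l. Over all probe sets, 4.13% lay apart on the higher side and 5.06% on the lower side, so this count is small beside that share. All 24 genes kept their sign under each of the 17 alternatives tried. Since they were chosen for groups that lay apart, only centring and quantile normalization could have turned a sign.

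Among genes with roles in the response to amino acid shortage, the lists leaned lower at 48 h, and most of that difference rested on 24 h replicate 1. The median log2 difference was -0.27 over 15 genes of amino acid synthesis and one-carbon metabolism, -0.35 over 12 amino acid transporters, -0.16 over 18 ATF4 and CHOP stress genes and -0.11 over 19 cytosolic aminoacyl-tRNA synthetases, beside -0.02 over all 14220 genes. Without 24 h replicate 1 the medians were -0.02, -0.12, -0.01 and 0.04. That array was the highest of the 6 for 10 of 15, 9 of 12, 15 of 18 and 13 of 19 members, against 25.0% of all probe sets. At an unadjusted p under 0.05, 1 member of the synthesis list was higher, Got1 at 0.26, and 1 was lower, Gpt2 at -1.28 (-0.73 without 24 h replicate 1). Over all genes 1.77% were higher and 2.12% lower by that rule. Of the transporters, 2 were lower by it, Slc38a2 and Slc43a1, and none of the stress genes or synthetases passed in either direction.

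Psat1, which makes the precursor of serine, read 3925, 1224 and 936 at 24 h and 1195, 1029 and 931 at 48 h. The groups overlapped, and 24 h replicate 1 stood alone above the rest. The mean was 2028.5 ± 1648 (SD, n = 3) at 24 h and 1052 ± 134 (SD, n = 3) at 48 h, a log2 difference of -0.66 that became -0.03 without that array. Chac1, a glutathione-degrading enzyme induced by ATF4, read 1268, 254 and 219 and then 324, 223 and 256. Trib3, a pseudokinase that restrains ATF4, read 482, 148 and 99.3 and then 102, 112 and 134. Both overlapped in the same way. Asns, which makes asparagine, differed less, with 7277, 5700 and 6393 at 24 h and 6280, 5842 and 6013 at 48 h. Ddit3 (CHOP) read 1093, 915 and 752 and then 869, 722 and 843, and the groups overlapped.

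Some transporters were lower at 48 h than in each 24 h array. Slc38a2, an importer of neutral amino acids that is a known ATF4 target, read 2767, 2204 and 2115 at 24 h and 2028, 1696 and 1950 at 48 h. The groups did not overlap, at a log2 difference of -0.31 (standard error 0.13), and of -0.20 without 24 h replicate 1. Slc43a1, a carrier of large neutral amino acids, read 37.2, 10.1 and 14.9 and then 4.05, 4.68 and 4.89, far below the median signal. Slc7a11, the cystine importer, read 224, 48.2 and 54.6 and then 27.6, 29.4 and 49.1, where 24 h replicate 2 lay just below 48 h replicate 3. Its difference was -1.30, and -0.59 without 24 h replicate 1.

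Because members of these lists stood high together in 1 array, the bases before their start sites were searched for the letters TGATGNAA on either strand, the core of the C/EBP-ATF element that ATF4 dimers are known to bind. In the RefSeq promoters of the rat assembly GRCr8, the 250 bases before the start held a match for 983 of 27457 genes (3.58%). They held one for 3 of 13 genes of amino acid synthesis (Got1, Pck2 and Pycr1), for 3 of 10 transporters (Slc1a4, Slc38a1 and Slc7a1), for 5 of 16 stress genes (Chac1, Fgf21, Jdp2, Nupr1 and Trib3) and for 5 of 17 synthetases (Aars1, Iars1, Mars1, Nars1 and Tars1). A match is a description of the letters and not a measured binding site. The lists were made of genes known for this response, ATF4 targets among them. A share above 3.58% thus comes with the choice of genes and says nothing about 24 h replicate 1. Why that array stood high was not tested. A stretch of 60 bases around the match is shown, 5' to 3' on the gene's strand with the match in capitals, for 1 gene of each of 3 lists that stood high in 24 h replicate 1. They lie at chr3:126795938-126795997 on the plus strand for Chac1, at chr10:106420910-106420969 on the minus strand for Pycr1 and at chr17:15193653-15193712 on the minus strand for Iars1.
Chac1: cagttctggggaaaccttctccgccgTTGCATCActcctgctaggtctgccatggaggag
Pycr1: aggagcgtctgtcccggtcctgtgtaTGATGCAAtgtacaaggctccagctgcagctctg
Iars1: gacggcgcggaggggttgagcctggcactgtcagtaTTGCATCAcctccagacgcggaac
Pycr1, the last enzyme of proline synthesis, read 516, 136 and 159 at 24 h and 143, 169 and 128 at 48 h. Iars1, which charges isoleucine tRNA, read 2013, 1117 and 1121 and then 1074, 1121 and 1136. In both, as in Chac1, 24 h replicate 1 lay far above the other 5 arrays.

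ER chaperones and genes of ER-associated degradation lay on the other side. The median of 27 genes was 0.19, with 21 above 0, and 4 had groups that lay apart, all higher at 48 h. Over all 14220 genes the share with groups apart was 4.59% higher and 4.99% lower. These 4 were Ero1b, Manf, Pdia6 and Fkbp11, of which the last 2 are named for this count after their values were seen. Array 24 h replicate 1 was the lowest of the 6 for 19 of the 27 members (17.4% of all probe sets), and without it the median was 0.05. Ero1b, the oxidase that drives disulfide bonds in insulin-producing cells, read 1535, 1918 and 1966 at 24 h and 2139, 2308 and 2597 at 48 h. Manf, a secreted ER stress factor, read 2541, 3322 and 3726 and then 3867, 3990 and 4463. Hspa5 (BiP), the main ER chaperone, read 9622, 12273 and 14902 and then 14702, 15898 and 16619, so that its groups overlapped by 1 array. Their log2 differences were 0.38 each (standard errors 0.12, 0.14 and 0.15). Without 24 h replicate 1 they were 0.27 for Ero1b, 0.22 for Manf and 0.22 for Hspa5. Hspa5, a gene of the highest 1% of signal, was at 0.16 with quantile normalization.

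**Figure D4:**
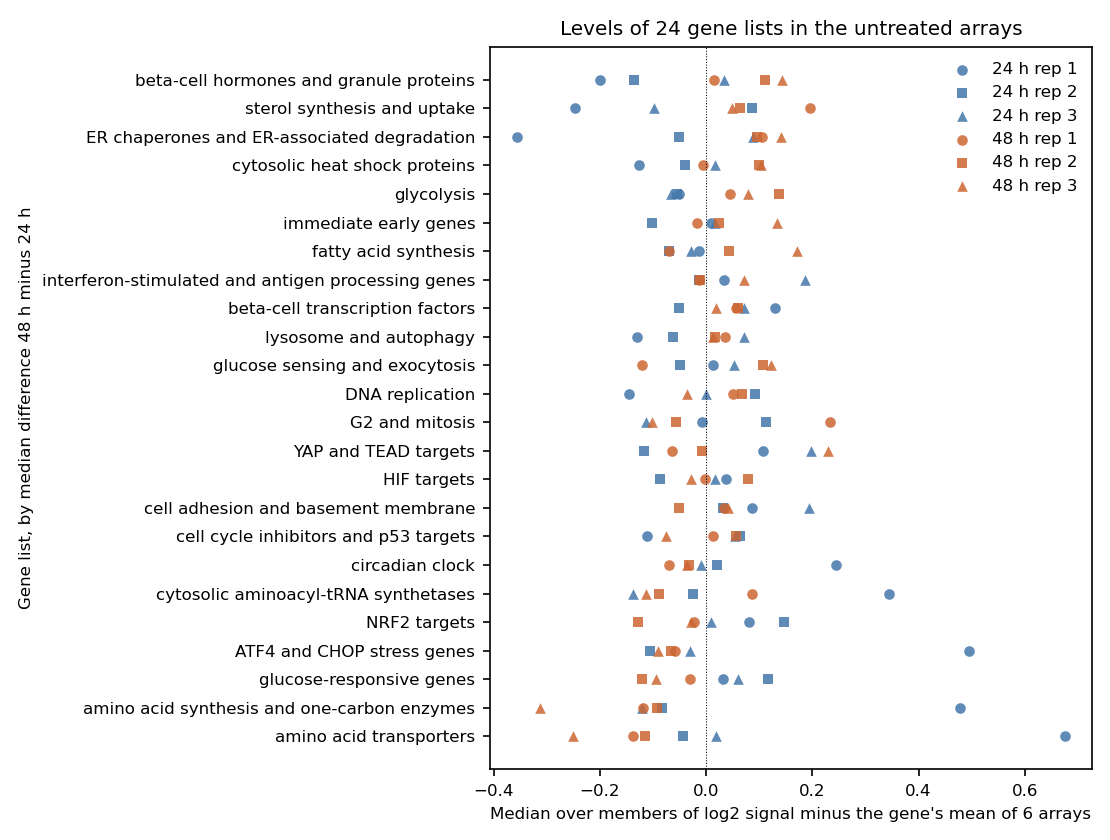
Level of 24 gene lists in each of the 6 untreated arrays, as the median over members of log2 signal minus the gene's mean over the 6, blue for 24 h and orange for 48 h, ordered by the median difference between the times. At the bottom, 24 h replicate 1 (blue circle) lies at 0.48 for amino acid synthesis and 0.67 for transporters, apart from the other 5 arrays, and at -0.36 for ER chaperones.

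Hormones and granule proteins were higher at 48 h with the deposited scaling. Of 17 genes, 14 had a difference above 0, with a median of 0.25, 5 were higher at an unadjusted p under 0.05 (Chga, Pcsk1, Ins2, Ins1 and Iapp), and 6 had groups that lay apart. Over all genes the shares were 1.77% and 4.59%. Without 24 h replicate 1, the lowest array for 9 of the 17, the median was 0.135. Under quantile normalization the median was 0.03 and 1 of 17 lay apart (Pcsk1). The size of this difference thus depended on the scaling of the brightest probe sets. With the deposited scaling, the list's level was -0.20, -0.14 and 0.03 at 24 h and 0.01, 0.11 and 0.14 at 48 h. This level is the median over members of log2 signal minus the gene's mean over the 6 arrays. The times overlapped, with 24 h replicate 3 above 48 h replicate 1. Ins2 read 14098, 17746 and 18051 at 24 h and 19116, 21216 and 22762 at 48 h, without overlap. Transcripts of the transgene may be read by the Ins2 probe set as well, which was not tested. With doxycycline, which induces the transgene, this probe set read 13246, 14863 and 18706 at 24 h and 15918, 20113 and 22687 at 48 h. Ins1 read 15918, 16493 and 19719 and then 18426, 25461 and 23841, with overlap. Iapp, which encodes amylin, read 17893, 16868 and 17978 and then 19415, 21760 and 21964, without overlap. The log2 differences were 0.34 for Ins2, 0.37 for Ins1 and 0.26 for Iapp with the deposited scaling, and 0.05, 0.11 and -0.01 with quantile normalization. Without 24 h replicate 1 and with the deposited scaling, that of Ins2 was 0.23.

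Pcsk1, the convertase that makes the first cuts in proinsulin, read 1116, 995 and 1389 at 24 h and 1871, 1404 and 1443 at 48 h. Its groups lay just apart, at a log2 difference of 0.43 (standard error 0.15). Chga, a granule matrix protein, differed by 0.40 and overlapped, and it differed by 0.13 with quantile normalization. Of the transcription factors, Mafa, an activator of the insulin gene, read 2544, 3830.5 and 4733 and then 4534, 4788 and 5168, with overlap and with 24 h replicate 1 lowest. Over 15 such factors the median was 0.06. Gcg, which encodes glucagon and is a marker of alpha cells, read 359, 2380 and 1622 at 24 h and 1896, 1464 and 2023 at 48 h. The groups overlapped, and the spread at 24 h was set by replicate 1.

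Genes of sterol synthesis and uptake were mostly higher at 48 h, with 18 of 20 above 0, a median of 0.19, and 4 with groups apart, all higher at 48 h, against 4.59% of all genes. Under quantile normalization 19 of 20 were above 0, with a median of 0.16, and without 24 h replicate 1 the median was 0.125. Array 24 h replicate 1 was the lowest of the 6 for 11 of the 20. With the deposited scaling, the list's level was -0.25, 0.09 and -0.10 at 24 h and 0.20, 0.06 and 0.05 at 48 h. The times overlapped, with 24 h replicate 2 above 48 h replicates 2 and 3. The highest levels were those of 24 h replicate 2 and 48 h replicate 1, a pair that correlated at 0.989. Insig1, which holds the sterol sensor SCAP in the ER, read 1909, 2782 and 2975 at 24 h and 3222, 3587 and 3531 at 48 h. The groups did not overlap, at a log2 difference of 0.46 (standard error 0.16), and of 0.26 without 24 h replicate 1. Fdft1, which makes squalene, differed by 0.33 and Tm7sf2, a sterol reductase, by 0.39, both with overlap, and by 0.21 and 0.25 without that array. The other 3 with groups apart were Sqle, Mvk and Pmvk, at 0.19, 0.21 and 0.07, named for this count after their values were seen. Mvk was at 0.09 without that array. Over 16 genes of fatty acid synthesis the median was 0.07, and Scd2, a fatty acid desaturase, differed by 0.35 with overlap, and by 0.15 with quantile normalization.

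Proliferation genes differed little. The median was 0.03 over 23 genes of G2 and mitosis and 0.03 over 25 of DNA replication, with 1 (Cdk1) and 3 (Mcm7, Pcna and Prim1) whose groups lay apart, all higher at 48 h, against 4.59% of all genes. Under quantile normalization Mcm7 was the single replication gene apart. Mki67, a marker of dividing cells, read 2845, 2904 and 3023.5 at 24 h and 2754, 3291 and 2947 at 48 h, with overlap. Ccnb1, the cyclin of entry into mitosis, read 3984, 4484 and 3729 and then 4932, 3805 and 3910.3. Its highest arrays were 24 h replicate 2 and 48 h replicate 1, a pair that correlated at 0.989 over the brighter probe sets. The median of the mitosis list was likewise highest in those 2 arrays, at 0.11 and 0.23, and lay between -0.11 and -0.01 in the other 4. For Mcm7, a subunit of the replicative helicase, the groups lay apart at a difference of 0.23, which was 0.135 with quantile normalization.

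Glucose-responsive genes had a median of -0.18 over 10 genes, -0.19 without 24 h replicate 1 and -0.21 under quantile normalization. By unadjusted p, 1 was lower, Gpd1, a cytosolic glycerol phosphate dehydrogenase, which read 5578, 5158 and 5423 at 24 h and 4652, 4187 and 4796 at 48 h. Txnip, the member known to follow glucose most closely, read 10060.1, 11288 and 10430 and then 11222, 8688 and 8830.5. Its groups overlapped, at a log2 difference of -0.15 (95% interval -0.43 to 0.12). With quantile normalization the difference of Txnip was -0.32 (unadjusted p = 0.0277 by limma). Over 15 genes of glycolysis the median was 0.14, and 0.03 under quantile normalization. Pgk1 at 0.37 and Eno1 at 0.26 were higher and Pfkl at -0.47 lower by unadjusted p, against 1.77% and 2.12% of all genes. Pgk1 and Eno1, both in the highest 1% of signal, were at 0.20 and 0.02 with quantile normalization and no longer passed (unadjusted p = 0.0988 and 0.794 by limma). NRF2 targets had a median of -0.13 over 16 genes. The medians of the other lists of this kind, HIF targets, p53 targets and cell cycle inhibitors, immediate early genes, YAP and TEAD targets, adhesion genes, lysosome genes, cytosolic heat shock proteins, interferon-stimulated genes, glucose sensing and the circadian clock, lay between -0.08 and 0.14. Egr1, an immediate early gene, read 1368, 811 and 937 and then 816, 757 and 1043.

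The time difference was then set beside that of cultures given doxycycline, whose 6 arrays are none of those above. Control and doxycycline arrays of 1 time and number deviated from their group means together, with correlations of 0.27 to 0.68. The 2 sets of arrays were therefore taken to share experiments and not to be independent. With doxycycline, 48 h against 24 h gave 0% past the adjusted threshold. By unadjusted p under 0.05 the shares were 2.76% higher and 2.71% lower, and 5.49% higher and 5.48% lower with groups apart. Of the 24 leading genes, 22 had the same sign with doxycycline and 23 a smaller difference in size. Because the genes were chosen on their untreated differences, a smaller size in other arrays follows from the choice. Deviations that the 2 sets share favour a like sign, so neither count shows what doxycycline does. Of these 24, 4 of the 12 higher and 4 of the 12 lower also had doxycycline groups that lay apart in that direction. These were Fam151a, Abhd16a, Galnt14 and Rpl18 on the higher side and Cpt1a, Stxbp5, Tacc2 and Ms4a8 on the lower side. The exceptions in sign were Synpo2 (0.42 without and -0.06 with doxycycline) and Scn7a (-0.41 and 0.01). Cpt1a was lower with doxycycline too, at 1276, 1264 and 1157 and then 1131, 949.8 and 1016, a log2 difference of -0.26.

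**Figure D5:**
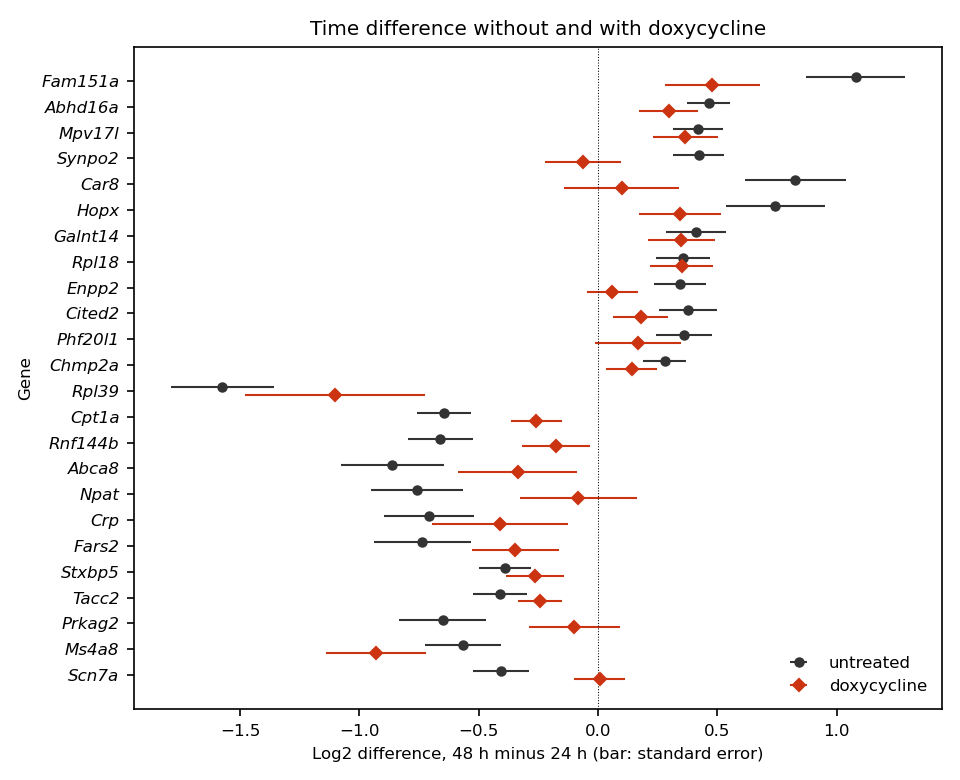
Log2 difference of mean signal, 48 h minus 24 h, for the 24 leading genes in untreated cultures (grey circles) and in cultures with doxycycline (red diamonds), with standard errors from limma. The genes were chosen on the untreated arrays; Rpl18 lies at 0.36 and 0.35, Cpt1a at -0.65 and -0.26, and Ms4a8 at -0.57 and -0.93.

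Tested directly, the time difference with doxycycline minus that without passed the adjusted threshold for no probe set by limma, and the smallest adjusted p was 1.00. By unadjusted p under 0.05 it was above 0 for 497 probe sets and below 0 for 331, 2.67% together. With control and doxycycline arrays of 1 time and number taken as a block, 3 probe sets passed. Ifi27l2b, an interferon-inducible gene, differed by 1.04 (adjusted p = 0.0241 in limma with the block). It read 740.4, 1122 and 909 at 24 h and 1165, 941 and 941 at 48 h in untreated cultures, and 1302, 2220 and 2003 and then 4056, 4273 and 3985 with doxycycline. Sytl4 (granuphilin), which docks insulin granules, differed by -0.78 (adjusted p = 0.0241 in the same fit). Its untreated cultures read 1677, 3204 and 3363 and then 3243, 2999 and 3477, and those with doxycycline 884, 1909 and 1949 and then 1002, 973 and 1255. Mafa differed by -0.73 (adjusted p = 0.0287 in the same fit), with 2081, 3162 and 3223 and then 2037, 2297 and 2404 with doxycycline. In both genes 24 h replicate 1 was the lowest array of its group with and without doxycycline.

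With all arrays, the list medians of the amino acid genes had opposite signs in the 2 treatments. With doxycycline, the median time difference was 0.19 for amino acid synthesis, 0.25 for transporters, 0.26 for stress genes and 0.15 for synthetases, where the untreated cultures gave -0.27, -0.35, -0.16 and -0.11. The untreated medians rested on 24 h replicate 1. Without it they were -0.02, -0.12, -0.01 and 0.04, so that the synthetases had the same sign in both treatments and the synthesis and stress genes were near 0. ER chaperones had 0.30 with doxycycline and 0.19 without, and sterol genes 0.19 in both. The medians were not tested against each other.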

How the data were processed

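Total RNA of each culture was labelled and hybridized to 1 Affymetrix rat array, and the authors deposited linear signal intensities. The 2% trimmed mean of each of the 18 arrays lay between 500.14 and 500.17, so the arrays had been scaled. Which program made the intensities is not given in the sources used, and detection calls were left aside.

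Of 31099 probe sets, 57 controls were left out. The log2 of the intensities was taken, and limma (version 3.58.1, R 4.3.3) with an intensity trend was fitted to the 3 arrays of Control 24h and the 3 of Control 48h. All p-values are two-sided and were adjusted by Benjamini-Hochberg over 31042 probe sets, with a threshold of 0.05. A second limma fit with the 6 doxycycline arrays of 24 h and 48 h gave the difference of the time differences. The number of arrays limits the precision. The fits were also run on simulated data with known changes, and the share recovered is not reported here.

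The annotation of the platform gives 1 gene to 20826 probe sets, several to 436 and none to 9780. Of the first, 20770 matched RefSeq (GRCr8) by gene number, and 12 further probe sets took the name that the study's supplementary gene list gives. In the lists and in counts of genes, a gene is its probe set of highest mean signal. A leading gene is instead its probe set of smallest p among those with groups apart in the upper 50% of signal. This was not always the brightest, as for Phf20l1 and Cited2. The 28 gene lists hold 530 genes, 481 of them measured. Members and lists were chosen with earlier results of these data known. Named genes were, first, among probe sets in the upper 50% of signal with groups apart, 12 in each direction past the threshold, filled by smallest unadjusted p, which filled all 24 places. Then came the 3 members of each list with the smallest p where 3 or more had p under 0.05, otherwise the 2 of largest difference, and a fixed set of hormone, stress and cell cycle genes, of which 2 are not reported here. Other members are named where a count or a promoter match calls for it, after their values were seen.

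Deviations of same-numbered 24 h and 48 h arrays correlated at 0.04, -0.24 and 0.22, and 1 of 6 arrays correlated best with its own number, so numbers were not taken as pairs across time. Those of 24 h replicate 2 and 48 h replicate 1 correlated at 0.445. Those of 24 h replicate 3 and 48 h replicate 2 correlated at 0.319. No fit paired these arrays. Control and doxycycline arrays of 1 time correlated at 0.68, 0.48 and 0.66 at 24 h and 0.58, 0.27 and 0.39 at 48 h and were paired. Alternatives were quantile normalization, centring on the array median, a floor at the 10th percentile, a pseudocount of 16, the upper 50% of signal alone, no intensity trend, the methods' t-test, the spread shared with other arrays, a replicate block, each array left out, and quantile normalization without 24 h replicate 1.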

Additional observations from a re-analysis of the deposited data

Results flagged for a closer look

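For 2 of the 95 genes named by the rules, all untreated arrays of 48 h lay below those of 24 h while all doxycycline arrays of 48 h lay above those of 24 h. Slc43a1 had a log2 difference of -1.97 in untreated cultures, and with doxycycline it read 12.8, 11.3 and 14.4 at 24 h and 15.8, 29.1 and 16.2 at 48 h. Khk, the fructokinase, had -0.62, with 143, 114 and 93.7 and then 81.5, 90.7 and 56.9 in untreated cultures and 93.3, 90.4 and 83.3 and then 113, 112 and 99.6 with doxycycline. Both lie below the median signal. The difference between the treatments was tested by limma and did not pass for either (adjusted p = 1.00 for both). Over all probe sets, 85 of 31042 lay apart in opposite directions in the 2 treatments.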

How the results depend on the processing

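The count of probe sets past the adjusted threshold was 0 in each direction under all 17 alternatives, with the smallest adjusted p, 0.078, in the fit without an intensity trend. One of these used the replicate number as a block, although numbers were not taken as pairs across time. In it 606 probe sets were higher at an unadjusted p under 0.05. Unadjusted counts moved more. In the upper 50% of signal alone, where fewer probe sets were tested, 344 were higher and 275 lower. Centred on the array median 432 were lower, and 367 were lower with quantile normalization without 24 h replicate 1. With each array left out in turn, 301 to 936 were higher, the lowest without 48 h replicate 2, with 328 without 48 h replicate 3, and the highest without 24 h replicate 3. Likewise 385 to 1028 were lower, the lowest without 24 h replicate 1 and the highest without 24 h replicate 3. The cause was not tested. For the difference between treatments, the replicate block of paired control and doxycycline arrays gave 1 higher and 2 lower, against 0 and 0 in the other settings. Of the 95 named genes, 12 had the other sign with quantile normalization without 24 h replicate 1, 5 without that array alone, 3 with quantile normalization, and 0 to 3 otherwise. Below the median signal, 95% intervals reach 1.61 log2 units to either side at their median, so differences of genes such as Slc43a1 were hardly measurable here.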
